A study of Mus musculus with 3 samples.

Results

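Angptl7, Myoc, Enpp2, Crispld2, Hlf and Abca6 were taken as genes of resting endoneurial cells among the mesenchymal cells of the nerve. Lpar1 and Lpar6 encode receptors for the lipid that the Enpp2 product makes. These 8 genes, of the 21438 listed in any of the tables, were chosen by name with earlier results of these data in view: their low level in injured against uninjured mesenchymal cells and their high level in endoneurial cells. Those contrasts are therefore given as a description of the genes and carry no test. The 6 genes other than the receptors are called the 6 factors below. Each of the 8 genes had a row in each of the 4 count tables.

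A peripheral nerve has a loose inner connective tissue around the axons (endoneurium), a cellular sheath around each bundle (perineurium) and an outer layer (epineurium), and each holds its own fibroblast-like mesenchymal cells. Enpp2 encodes autotaxin, a secreted lysophospholipase D that turns lysophosphatidylcholine into lysophosphatidic acid (LPA), and LPA acts through G protein-coupled receptors on neighbouring cells, Schwann cells among them. Angptl7 (an angiopoietin-like protein) and Myoc (myocilin, with an olfactomedin domain) are secreted proteins best known from the outflow tissue of the eye, and Crispld2 is a secreted CAP domain protein. Hlf is a PAR bZIP transcription factor of the circadian output, and Abca6 belongs to the ABCA family of membrane transporters.

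The cells came from sciatic nerves of adult wild-type mice and were read by Drop-seq, a droplet method that counts unique molecular identifiers (UMIs) near the 3′ end of transcripts, so a gene's level needs no correction for its length. There were 3 libraries, 1 a group: injured nerve of CD1 mice cleaned with myelin removal beads, injured nerve of CD1 and C57BL/6 mice sorted by FACS, and uninjured nerve of CD1 mice cleaned with beads. The injured nerves were distal segments at 9 days after resection, and the uninjured table holds predicted mesenchymal cells, as the authors labelled them. The sources used here do not give the number of animals, the FACS gate or any sequencing batch, so that differences between animals or runs cannot be told apart from those between groups. No test was possible, and all intervals below are exact 95% intervals that cover counting error only.

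The injured beads library had 4300 barcodes with 10859939 UMIs, of which 1289 were in the authors' mesenchymal table with 0 differing counts (4746263 UMIs, median 2798 a cell). The FACS library had 2000 barcodes with 7122377 UMIs, and the uninjured table had 880 cells with 2169121 UMIs (median 2102.5 a cell). Injured beads and FACS libraries shared 1 barcode, and the uninjured library shared 0 with either. At least 2 UMIs of markers of another cell class were present in 482 of 1289 injured and 350 of 880 uninjured mesenchymal cells (37.4% of injured and 39.8% of uninjured ones).

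Mesenchymal cells of injured and uninjured nerve went into a single clustering without the 8 genes, and clusters were named from other markers. Endoneurial-like cells numbered 258 injured and 430 uninjured, epineurial-like cells 189 injured and 381 uninjured, and perineurial-like cells 72 injured and 66 uninjured. A differentiating class (markers Dlk1, Mest, Postn, Tnc and Cthrc1) held 659 injured and 2 uninjured cells, and 111 injured cells and 1 uninjured cell stayed unnamed. Of the injured endoneurial-like cells, 251 formed a cluster with no uninjured cell, led by Wif1, Ccl9, Ccl2 and Col28a1, and 7 lay in the cluster of all 430 uninjured ones. The class was therefore made of almost separate clusters in the 2 conditions. A cell-by-cell marker score gave 79.0% of injured and 84.9% of uninjured cells the class of their cluster.

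The 6 endoneurial markers were present in both pools, with a summed level of 3061.5 CPM (UMIs scaled to a pool total of 1e6) in injured and 1569 CPM in uninjured endoneurial-like cells. Wif1, an inhibitor of Wnt ligands, gave 2241 of the injured CPM, against 9.87 CPM in uninjured cells. Sox9, a transcription factor, was at 261 CPM in injured against 437 CPM in uninjured endoneurial-like cells. Osr2, another transcription factor, was at 207 CPM in injured against 671 CPM in uninjured ones. These markers named the class and are no finding. Depth also differed: the median was 6077.5 UMIs a cell in injured endoneurial-like cells and 2167 in uninjured ones.

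All 8 genes are protein-coding in GENCODE vM21 on GRCm38, the assembly that mm10 names. Angptl7 lies on the minus strand of chromosome 4 from 148495183 to 148500460, inside Mtor on the plus strand. Myoc lies on the plus strand of chromosome 1 from 162639155 to 162649693. Enpp2 lies on the minus strand of chromosome 15 from 54838901 to 54952892. Crispld2 lies on the plus strand of chromosome 8 from 119992438 to 120052793, within the predicted gene Gm20388 on the same strand.
Hlf and Abca6 lie on the minus strand of chromosome 11, from 90336536 to 90390895 and from 110176820 to 110251776. Lpar1 lies on the minus strand of chromosome 4 from 58435255 to 58553898, and Lpar6 on the plus strand of chromosome 14 from 73237895 to 73243294, inside Rb1 on the minus strand. Whether the authors counted by strand is not stated, so reads of Angptl7 and Mtor, of Lpar6 and Rb1, and of Myoc and Myocos, whose ends overlap on opposite strands, could not be told apart by strand. Mtor was at 21.1 CPM in injured against 25.8 CPM in uninjured mesenchymal cells, and Rb1 at 9.27 CPM in injured against 12.4 CPM in uninjured ones.

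The 250 bases before the start of 4 of the 6 genes that differed between the conditions are shown because these genes were low together in injured cells. Windows were matched for 6 of the 8 members, all but Enpp2 and Abca6. The sequences are from RefSeq on GRCm38.p6, run 5′ to 3′ on the gene's strand and end at the base before the start. Capitals mark matches, on either strand, to the TATA box letters TATAAA, the E-box letters CACGTG, the CCAAT box or the GC box letters GGGCGG. No capitals mean that none of these letters was found in the window. TTANGTAA, the core of the D-box that PAR bZIP factors bind, and AGAACA, a glucocorticoid receptor half-site, were also searched on both strands and found in none of the 4 windows.

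Angptl7, chr4:148500463-148500712, minus strand: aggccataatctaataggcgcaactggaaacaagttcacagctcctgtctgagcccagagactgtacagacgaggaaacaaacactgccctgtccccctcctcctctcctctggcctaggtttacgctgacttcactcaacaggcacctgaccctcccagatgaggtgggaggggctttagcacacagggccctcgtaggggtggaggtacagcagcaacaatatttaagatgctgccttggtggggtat

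Myoc, chr1:162638900-162639149, plus strand: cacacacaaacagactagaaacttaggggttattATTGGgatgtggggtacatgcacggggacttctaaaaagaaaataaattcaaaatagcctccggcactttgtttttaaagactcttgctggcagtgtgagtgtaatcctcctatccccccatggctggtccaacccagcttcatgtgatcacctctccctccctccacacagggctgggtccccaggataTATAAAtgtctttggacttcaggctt

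Crispld2, chr8:119992188-119992437, plus strand: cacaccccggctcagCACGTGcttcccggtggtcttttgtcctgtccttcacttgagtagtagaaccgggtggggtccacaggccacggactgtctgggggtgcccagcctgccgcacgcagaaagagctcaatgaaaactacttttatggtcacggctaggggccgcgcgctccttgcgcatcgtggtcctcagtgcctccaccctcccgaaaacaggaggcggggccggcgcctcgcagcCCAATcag

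Hlf, chr11:90390918-90391167, minus strand: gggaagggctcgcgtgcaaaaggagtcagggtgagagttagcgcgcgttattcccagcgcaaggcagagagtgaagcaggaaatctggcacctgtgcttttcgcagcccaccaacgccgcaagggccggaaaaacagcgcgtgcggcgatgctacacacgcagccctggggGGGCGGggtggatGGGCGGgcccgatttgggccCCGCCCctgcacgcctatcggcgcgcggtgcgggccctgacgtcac

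The 4 windows had little in common. Hlf had 67.2% G and C, 26 CpG and 3 GC boxes, and Crispld2 had 63.2% G and C and 18 CpG. Angptl7 had 54.4% and 4 CpG, and Myoc 46.8% and 2 CpG with TATAAA from 26 to 21 bases before the start. Over 32851 windows of the same length the median was 52.4% and 6 CpG, and TATAAA was found in 12.4%, CACGTG in 6.02%, CCAAT in 33.85%, GGGCGG in 32.7%, TTANGTAA in 2.06% and AGAACA in 16.1% of them. No motif was found in all 4 windows. A match describes the letters and is not evidence of binding.

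Among mesenchymal cells of uninjured nerve, the 6 factors were mostly found in endoneurial-like cells, with Myoc as a partial exception. Other cell classes of uninjured nerve were not in the table, so their levels of these genes are not known. Endoneurial-like cells gave 95.6% of the Abca6 UMIs of the uninjured table, 93.8% of those of Enpp2, 92.8% of those of Angptl7, 92.2% of those of Hlf and 87.7% of those of Crispld2, while they were 48.9% of the cells. For Myoc they gave 66.6%, and epineurial-like cells gave the remaining 33.4%. Angptl7 was at 4048 CPM (3931 to 4168) and Crispld2 at 2546 CPM (2453 to 2641) in uninjured endoneurial-like cells. Enpp2 followed at 1363 CPM, Abca6 at 907 CPM, Myoc at 732 CPM and Hlf at 203 CPM, and the intervals of neighbours in this order did not overlap.

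**Figure D1:**
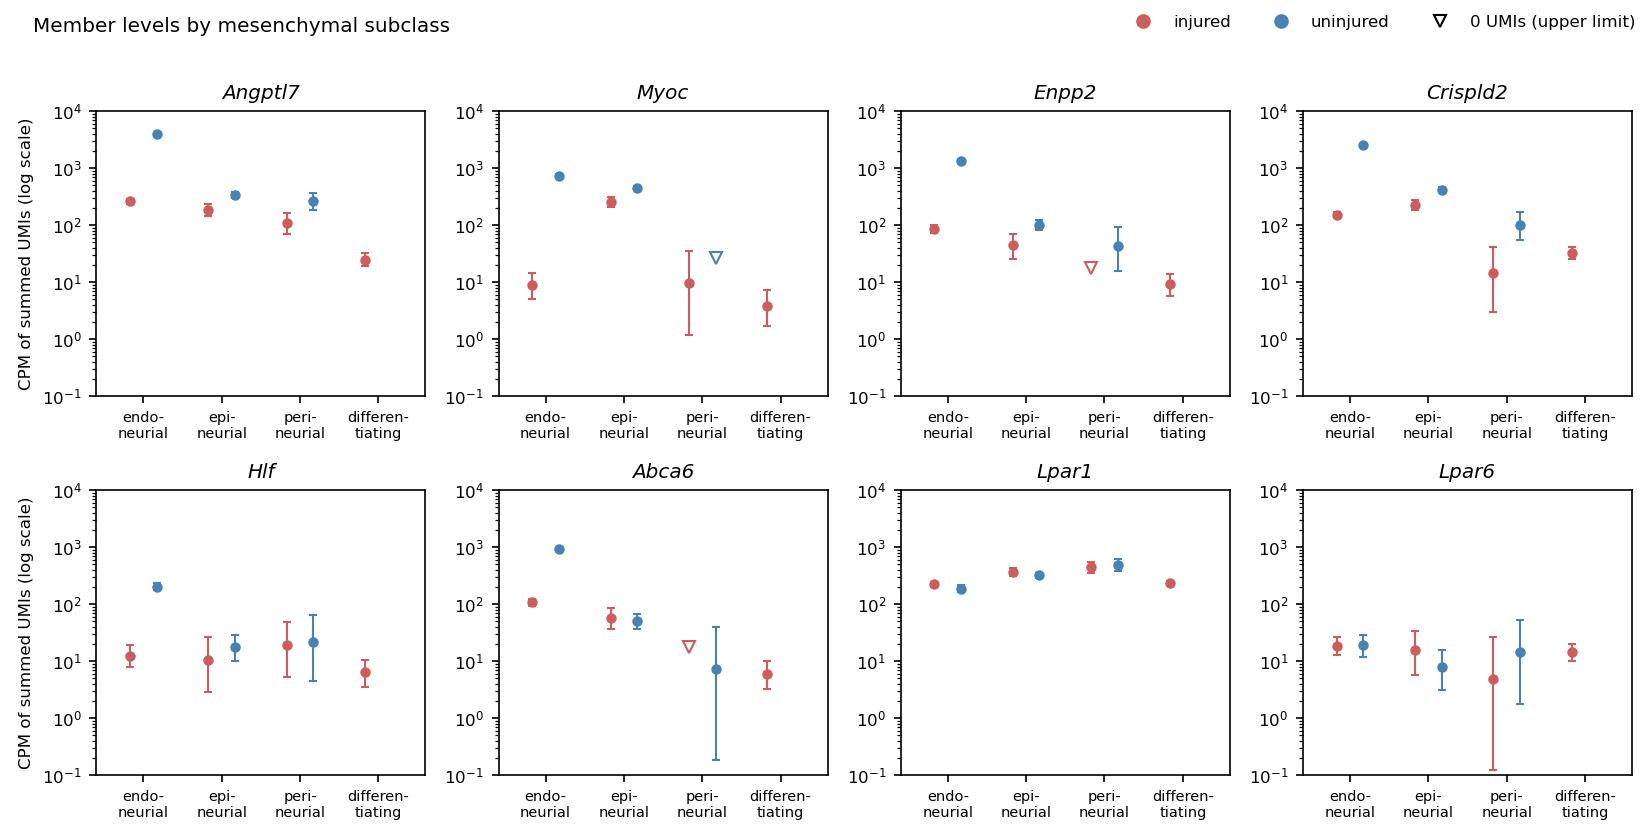
CPM of summed UMIs (log scale) of each gene in endoneurial-like, epineurial-like, perineurial-like and differentiating cells, injured in red and uninjured in blue, with exact Poisson 95% intervals; an open triangle is the upper limit of a pool with 0 UMIs, and the uninjured differentiating pool of 2 cells is left out. In endoneurial-like cells the injured points of the 6 factors lie far below the uninjured ones, while those of Lpar1 and Lpar6 lie side by side.

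Between the layers of uninjured nerve, Abca6 was 17.9-fold, Enpp2 13.6-fold, Angptl7 11.8-fold, Hlf 11.5-fold and Crispld2 6.04-fold higher in endoneurial-like than in epineurial-like cells. Myoc was 1.63-fold higher (732 CPM against 450 CPM), which is under the fold of the rule used throughout: at least 50 CPM in a pool, at least a 2-fold ratio, and an interval without equality. Without cells that held markers of other classes it was 2.03-fold higher and passed. These folds depended on how cells were assigned to layers: by the marker score of each cell they were 8.22-fold for Abca6, 7.42-fold for Enpp2, 6.15-fold for Angptl7, 10.9-fold for Hlf, 4.63-fold for Crispld2 and 1.22-fold for Myoc. By that rule 5 of the 7 members with enough counts were higher, where 9.8% of 3716 genes were, and Lpar6 was under 50 CPM in both pools. Against perineurial-like cells 6 of 7 were higher, where 10.7% of 4738 genes were, and Lpar1 was lower, like 27.9% of genes. In injured nerve 4 of 5 members were higher in endoneurial-like than in perineurial-like cells and 0 lower, where 10.5% of 4377 genes were higher and 20.3% lower. By marker score Angptl7 was no longer among them, at 1.18-fold. Without cells holding markers of other classes, Angptl7 (1.36-fold) and Enpp2 (1.08-fold, with 3 counts taken for 0) were not among them. At resolutions 0.4 and 1.6 Lpar1 was lower by the rule (2.00-fold and 2.07-fold). Nothing is read from these counts, since the endoneurial contrast chose the genes.

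The perineurial-like pool also differed from gene to gene. Myoc had 0 UMIs in its 66 uninjured cells, at least 33.8-fold lower than in endoneurial-like cells (3 counts over the pool taken for 0), and Abca6 had 1 UMI. Angptl7 was at 267.5 CPM there, in 28.8% of cells, and Crispld2 at 101 CPM, in 9.09% of cells. The endoneurial-like level was 15.1-fold the perineurial-like level for Angptl7, 25.2-fold for Crispld2 and 31.4-fold for Enpp2. By marker score the 94 uninjured perineurial cells held more of each factor. Myoc was at 105 CPM there, and the endoneurial level was 6.47-fold that level for Myoc, 4.18-fold for Angptl7, 4.11-fold for Crispld2 and 5.29-fold for Enpp2. How much of these low levels was free RNA was not tested.

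In the injured nerve the 6 factors were all low in mesenchymal cells as a whole. Angptl7 was at 127.9 CPM in injured against 2240 CPM in uninjured cells, Crispld2 at 91.0 CPM in injured against 1491 CPM in uninjured cells, and Enpp2 at 39.8 CPM in injured against 746 CPM in uninjured cells. Myoc was at 26.3 CPM in injured against 565 CPM in uninjured cells, Abca6 at 47.0 CPM in injured against 488 CPM in uninjured cells, and Hlf at 9.69 CPM in injured against 113 CPM in uninjured cells. As UMIs per cell 6 of 7 members were lower in all mesenchymal cells too, where 3.25% of genes were. In CPM the injured levels were 10.4-fold (Abca6) to 21.4-fold (Myoc) lower. By the rule of size 6 of 7 members were lower, where 7.14% of 3964 genes were lower and 8.17% higher; this contrast chose the genes, and nothing is read from the count.

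The make-up of the pools differed: endoneurial-like cells were 20.0% of injured and 48.9% of uninjured mesenchymal cells. Within endoneurial-like cells alone the 6 factors were lower in injured than in uninjured nerve. Angptl7 was at 262.5 CPM (239 to 288) in injured and 4048 CPM in uninjured endoneurial-like cells (log2 ratio -3.95, -4.09 to -3.81). Crispld2 was at 152 CPM in injured against 2546 CPM in uninjured ones (log2 -4.06, -4.25 to -3.88). The genes were chosen for being low in injured cells, so these intervals give the counting error and are no support.

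Enpp2 was at 85.1 CPM in injured against 1363 CPM in uninjured endoneurial-like cells (log2 -4.00, -4.26 to -3.75). Hlf was at 12.5 CPM in injured against 203 CPM in uninjured ones (log2 -4.02, -4.74 to -3.37). Abca6 differed least of the 6, with 108 CPM in injured against 907 CPM in uninjured cells (log2 -3.07, -3.31 to -2.84). The ratios of Angptl7, Crispld2, Enpp2 and Hlf had overlapping intervals, and the interval of Abca6 met none of theirs.

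Myoc stood apart from the others. It had 15 UMIs in 12 of 258 injured endoneurial-like cells and 816 UMIs in 209 of 430 uninjured ones, or 8.93 CPM in injured against 732 CPM in uninjured cells. That is 82.0-fold lower (log2 -6.36, -7.20 to -5.63), and the interval lay below those of the other 5 factors. By the rule of size 6 of 7 members were lower within endoneurial-like cells, where 9.12% of 3729 genes were lower and 10.9% higher.

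**Figure D2:**
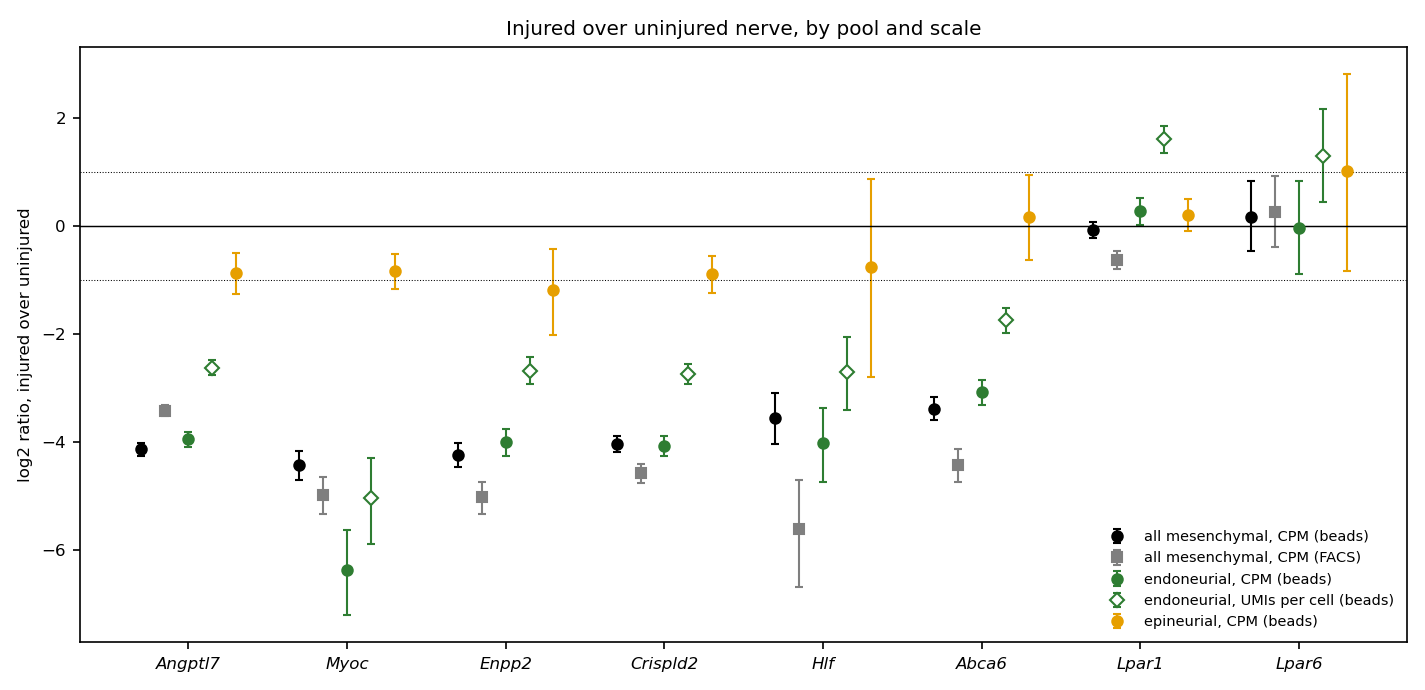
Log2 ratio, injured over uninjured, of each gene in all mesenchymal cells (beads and FACS), in endoneurial-like cells as CPM and as UMIs per cell, and in epineurial-like cells; bars are exact conditional binomial 95% intervals, and dotted lines mark a 2-fold difference. The 6 factors lie below the lower dotted line on all scales in endoneurial-like cells, and Lpar1 crosses the upper one only as UMIs per cell.

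The scale matters for these pools, because injured endoneurial-like cells held 6512 UMIs a cell on average and uninjured ones 2591. As UMIs per cell, Angptl7 averaged 1.71 in injured and 10.5 in uninjured endoneurial-like cells, a 6.14-fold lower mean. Crispld2 averaged 0.992 in injured and 6.60 in uninjured cells, and Enpp2 0.554 in injured and 3.53 in uninjured ones. Hlf averaged 0.0814 in injured and 0.526 in uninjured cells, and Abca6 0.702 in injured and 2.35 in uninjured ones. Myoc averaged 0.0581 in injured and 1.90 in uninjured cells, 32.6-fold lower. On this scale 6 of 7 members were again lower, where 1.72% of genes were lower and 73.3% higher. The 6 factors thus had fewer UMIs per cell in cells with more UMIs in all, and capture per cell and RNA content cannot be told apart.

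Cells thinned to 1000 UMIs each gave like ratios (log2 -2.70 for Abca6 to -5.24 for Myoc), over the 247 of 258 injured and 383 of 430 uninjured endoneurial-like cells that were deep enough. Crispld2 had a UMI in 14.2% of injured and 77.3% of uninjured cells of that depth, Angptl7 in 15.4% of injured and 62.9% of uninjured ones, and Enpp2 in 8.91% of injured and 64.2% of uninjured ones. Abca6 was seen in 11.3% of injured and 52.5% of uninjured cells, Myoc in 1.62% of injured and 35.5% of uninjured ones, and Hlf in 0.40% of injured and 15.4% of uninjured ones. Without thinning Crispld2 was seen in 40.7% of injured and 88.6% of uninjured cells, Angptl7 in 38.4% of injured and 67.2% of uninjured ones, and Myoc in 4.65% of injured and 48.6% of uninjured ones. Fewer cells showed each factor, at either depth.

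Angptl7 was spread unevenly over uninjured endoneurial-like cells. Per 1000 UMIs, 142 of 383 cells had 0 and 130 had 5 or more, with a highest of 32. Crispld2 was more even, with 0 in 87 cells and 5 or more in 83. In injured endoneurial-like cells 209 of 247 had 0 Angptl7 UMIs and 3 had 5 or more.

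Most uninjured endoneurial-like cells held several of the 6 factors. Of 383 uninjured endoneurial-like cells at 1000 UMIs, 70.2% held at least 3 of the 6, 7 held all 6 and 6 held none. Of 247 injured ones, 2 cells (0.81%) held 3, none held more, and 59.1% held none. Uninjured epineurial-like cells held at least 3 in 3.40% of 324 cells. The 7 injured cells in the otherwise uninjured cluster held 0 UMIs of Angptl7, Myoc and Enpp2, an upper limit of 439 CPM each over the 7 cells, which is below the uninjured endoneurial-like levels. Their median was 418 UMIs, and 1 of them held 5547.

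**Figure D3:**
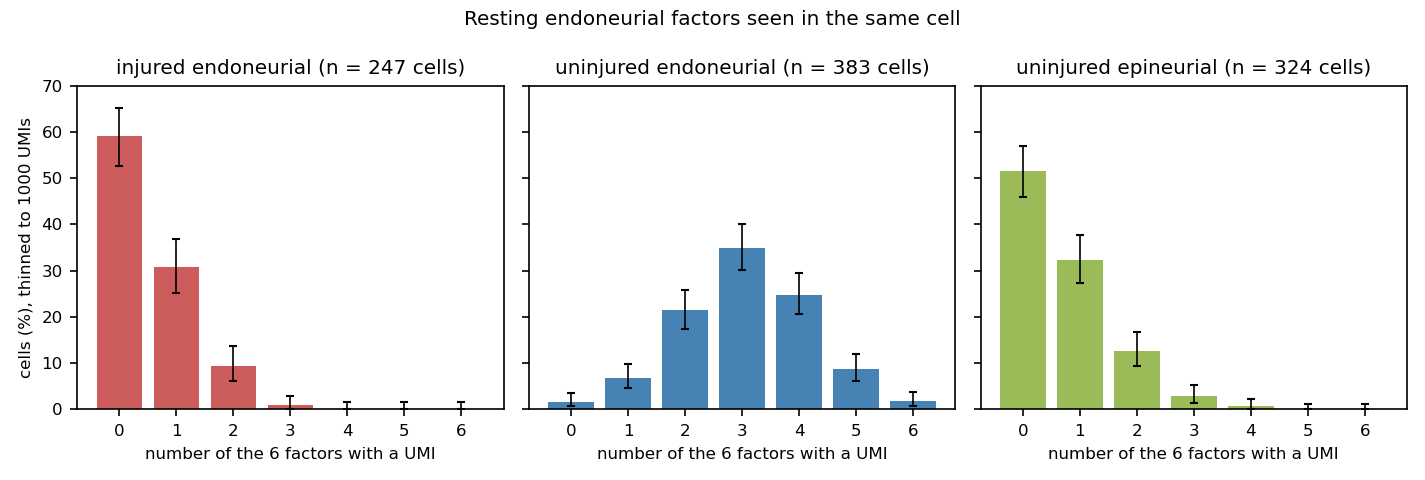
Share of cells (%) by the number of the 6 factors with a UMI, after thinning to 1000 UMIs, for injured endoneurial-like, uninjured endoneurial-like and uninjured epineurial-like cells, with exact binomial 95% intervals. Uninjured endoneurial-like cells peak at 3 factors (134 of 383 cells), and both other pools peak at 0.

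A pair of the factors was unevenly shared between cells. Among uninjured endoneurial-like cells at 1000 UMIs, Myoc was seen in 29.4% (24.3 to 34.9) of the 296 cells with Crispld2 and in 56.3% (45.3 to 66.9) of the 87 without. Angptl7 went the other way, in 71.3% (62.9 to 78.7) of the 136 cells with Myoc and 58.3% (51.9 to 64.5) of the 247 without, with intervals that overlap slightly. For the remaining pairs the shares with and without the partner had overlapping intervals too. Cells of 1 library are not replicates, so these shares describe that library.

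Outside the endoneurium the factors differed less between the conditions. In epineurial-like cells Angptl7 was at 187 CPM in injured against 342 CPM in uninjured nerve (log2 -0.87, -1.26 to -0.50), and Crispld2 at 229 CPM in injured against 422 CPM in uninjured cells (log2 -0.88, -1.23 to -0.54). Enpp2 was at 44.2 CPM in injured against 100.2 CPM in uninjured cells (log2 -1.18, -2.02 to -0.42) and was the 1 member of 6 that passed the rule, where 2.31% of 3772 genes were lower and 4.4% higher. As UMIs per cell 4 of the 6 were lower, where 4.24% of genes were. Abca6 was at 57.2 CPM in injured against 50.65 CPM in uninjured cells (log2 0.18, -0.63 to 0.94), and Hlf at 10.4 CPM on 4 UMIs in injured and 17.6 CPM on 16 UMIs in uninjured ones. The way cells were sorted into layers moved these values: by marker score the log2 ratio of Angptl7 was -2.56, that of Crispld2 -1.48 and that of Abca6 -1.26, and 5 members passed the rule.

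After injury most Myoc UMIs were in epineurial-like cells. Myoc was at 252 CPM (205 to 308) in injured and 450 CPM (408 to 496) in uninjured epineurial-like cells (log2 -0.84, -1.17 to -0.51). Of the Myoc UMIs of injured mesenchymal cells, 77.6% came from epineurial-like and 12.0% from endoneurial-like cells. Of those of uninjured cells, 33.4% came from epineurial-like and 66.6% from endoneurial-like cells. In injured nerve Myoc was 28.3-fold lower in endoneurial-like than in epineurial-like cells (log2 -4.82, -5.71 to -4.03), while in uninjured nerve it was 1.63-fold higher. It was the only member of 6 lower by the rule in that injured comparison, where 14.4% of 4080 genes were lower, and 0 members were higher, where 10.2% were. Without cells holding markers of other classes Myoc was 12.5-fold lower there, and by marker score Angptl7 (2.11-fold) and Abca6 (2.26-fold) were higher.

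Epineurial-like cells came in a pair of clusters that held different factors in both conditions. In the cluster led by Cxcl13, Smpd3, Pi16 and Pcolce2, Myoc was at 336 CPM in 138 injured cells, against 752 CPM in 213 uninjured cells. In the cluster led by Comp, Inmt, Fmod and Gdf10, Myoc was at 53.0 CPM in 51 injured cells, against 114 CPM in 168 uninjured cells. Angptl7 and Crispld2 had the reverse order between the clusters. Angptl7 stood at 77.5 CPM in injured against 200.4 CPM in uninjured cells of the first cluster, and at 450.3 CPM in injured against 501 CPM in uninjured cells of the second. Crispld2 was at 111 CPM in injured against 319 CPM in uninjured cells of the first cluster, and at 512 CPM in injured against 536 CPM in uninjured cells of the second. In the second cluster the injured and uninjured intervals of both genes overlapped.

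In the 72 injured and 66 uninjured perineurial-like cells counts were low. Angptl7 had 23 UMIs in injured and 37 in uninjured cells, or 110.4 CPM in injured against 267.5 CPM in uninjured cells (log2 -1.28, -2.09 to -0.49), and Crispld2 had 3 UMIs in injured and 14 in uninjured cells. Enpp2 had 0 UMIs in injured and 6 in uninjured cells, at least 3.01-fold lower. Angptl7 and Crispld2 passed the rule of the 3 members that could, where 7.92% of 4822 genes were lower and 5.56% higher. As UMIs per cell 1 of the 3 was lower, where 2.8% of genes were. With 33 cells in each group after removal of cells with markers of other classes, none passed.

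The differentiating cells, found almost only in injured nerve, held little of the 6 factors. Crispld2 was at 32.9 CPM, Angptl7 at 24.9 CPM, Enpp2 at 9.27 CPM, Hlf at 6.32 CPM, Abca6 at 5.90 CPM and Myoc at 3.79 CPM. Against these cells the injured endoneurial-like cells were still 18.3-fold higher for Abca6, 10.6-fold for Angptl7, 9.18-fold for Enpp2 and 4.64-fold for Crispld2. By the rule 4 of 5 members were higher, where 7% of 4101 genes were. Lpar1 was at 225 CPM in injured endoneurial-like and 235.5 CPM in differentiating cells.

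The FACS library gave a second set of injured cells against the same uninjured library, so the comparisons share their control. Its 662 mesenchymal-like cells had a median of 5887 UMIs. Angptl7 was at 210.2 CPM there (log2 -3.41 against uninjured cells), higher than in the beads cells. Crispld2 at 62.5 CPM (log2 -4.58), Enpp2 at 23.0 CPM (-5.02), Abca6 at 22.8 CPM (-4.42), Myoc at 17.9 CPM (-4.98) and Hlf at 2.32 CPM (-5.60) were lower than in the beads cells. By the rule 6 of 7 members were lower than in uninjured cells, where 8.3% of 3942 genes were.

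Among the 146 FACS cells with an endoneurial marker score, Angptl7 was at 554 CPM (513 to 597) and Myoc at 8.19 CPM (3.93 to 15.1). The uninjured cells with that score had 3983 CPM of Angptl7 and 682 CPM of Myoc (log2 ratio, FACS over uninjured, -2.85 for Angptl7 and -6.38 for Myoc). Myoc thus had the lowest or nearly the lowest ratio in endoneurial cells of either injured library, beside Hlf at -6.40 on 3 UMIs in the FACS cells.

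Levels of the factors over the 7 pools of named subclasses and libraries gave the genes most like each. Over the 5533 genes of at least 50 CPM in a pool, those nearest to Angptl7 by Pearson correlation of log2(CPM + 10) were Olfm1 (0.96), Id3 (0.94), Jam2 (0.93), Gpc4 (0.93) and Phactr3 (0.92), with Enpp2 sixth. Those nearest to Enpp2 were Zfp36 (0.99), Jam2 (0.99), Crispld2 (0.97), Id3 (0.97) and Jund (0.96). Those nearest to Myoc were Lgalsl (0.96), Creb5 (0.96), Ramp2 (0.95), Ecm1 (0.95) and Fam198b (0.95), and the nearest member was Crispld2 at rank 53 (0.83). The pools come from 2 libraries, and many genes follow a contrast between so few points. Lpar1 had r = -0.37 with Angptl7 and -0.62 with Enpp2.

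Lpar1, the LPA receptor best known from Schwann cells and fibroblasts, was present in all mesenchymal pools and followed neither pattern of the factors. It was at 249.7 CPM in injured beads cells against 261.4 CPM in uninjured mesenchymal cells (log2 -0.07, -0.21 to 0.08). Injured FACS cells were lower, at 169 CPM (log2 -0.63, -0.79 to -0.46), which is under 2-fold. Perineurial-like cells had the highest level in both conditions, 441 CPM (356 to 541) in injured and 484 CPM (375 to 615) in uninjured nerve, followed by epineurial-like cells at 367 CPM (309 to 433) in injured and 318 CPM (283 to 357) in uninjured nerve. The injured intervals of these neighbours overlapped, and the uninjured ones did not. Endoneurial-like cells had the lowest level, 225 CPM (203 to 249) in injured and 186 CPM (161 to 213) in uninjured nerve (log2 0.28, 0.03 to 0.53).

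The Lpar1 ratio depended on the scale. As UMIs per cell it averaged 1.47 in injured and 0.481 in uninjured endoneurial-like cells (log2 1.61, 1.36 to 1.86), higher by the rule like 73.3% of all genes on that scale. Thinned to 1000 UMIs, 19.0% of injured and 14.4% of uninjured cells had a UMI (log2 of the UMIs 0.45, -0.08 to 0.98). By marker score the log2 ratio of CPM was 0.26 (0.0094 to 0.52) for beads over uninjured cells and -0.22 (-0.52 to 0.07) for FACS over uninjured cells. The ratio in CPM was thus under 2-fold in endoneurial cells of both injured libraries. The beads interval lay just above equality, and the FACS interval included it. Enpp2 in endoneurial-like cells was low on each of these scales. In uninjured nerve 51.0% of the Lpar1 UMIs came from epineurial-like cells, and in injured nerve 47.2% came from differentiating cells.

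In the whole injured nerve Lpar1 and Lpar6 lay in different cells. After barcodes with under 200 genes were removed, 4111 beads and 1914 FACS cells were sorted into classes from markers other than the members. In beads cells Lpar1 was highest in the 1401 mesenchymal-like cells at 248 CPM (234 to 263; 39.5% of cells), which gave 81.0% of its UMIs. A cluster of 120 cells that stayed unnamed, led by Prc1, Cenpf and Top2a, was at 199.8 CPM (165 to 239.5), and 36 mast-like cells were at 142.5 CPM on 8 UMIs. Schwann-like cells were at 84.0 CPM (68.3 to 102), with a UMI in 12.5% of 465 cells. They came in a pair of clusters, at 127 CPM (99.4 to 159.9) in 235 cells and 44.2 CPM (29.1 to 64.3) in 230 cells. Endothelial-like cells, set against them as background, had a UMI in 2.44% of cells (7.87 CPM, 4.50 to 12.8) at a median of 1929 UMIs, against 2144 in Schwann-like cells.

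Lpar6, a receptor whose human gene is known from hereditary hair loss, was highest in endothelial-like cells here. It was at 213 CPM (193 to 234) in 574 endothelial-like cells, 30.8% of which had a UMI, and these gave 64.2% of its UMIs in the beads library. Mononuclear phagocyte-like cells were at 115 CPM (93.8 to 140) and T or NK-like cells at 93.6 CPM (60.6 to 138), with intervals that overlap. The T or NK-like cells came in a pair of clusters. The cluster of 38 cells led by Gzma, Ccl5 and Nkg7 was at 202 CPM on 8 UMIs (87.3 to 399), near the endothelial-like level. The cluster of 174 cells was at 74.7 CPM (43.5 to 120). B-like cells were at 30.9 CPM, mesenchymal-like cells at 15.9 CPM and Schwann-like cells at 6.79 CPM. In mesenchymal cells Lpar6 was at 15.6 CPM in injured against 13.8 CPM in uninjured nerve (log2 0.17, -0.46 to 0.84), under the 50 CPM the rule needs.

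In the FACS library Lpar1 was at 169 CPM (157 to 182) in mesenchymal-like, 40.8 CPM (19.5 to 74.9) in 87 Schwann-like and 3.24 CPM in endothelial-like cells. A cluster of 302 cells that stayed unnamed, led by Car3, Cfd and Adipoq, was at 185 CPM of Lpar1 (130.5 to 255.5), with an interval that overlapped the mesenchymal-like one. Its best list was the mesenchymal one, and it stayed unnamed for its low depth, a median of 452.5 UMIs. Lpar6 was at 159 CPM (118 to 210) in 82 endothelial-like and 112 CPM (97.5 to 127) in 745 mononuclear phagocyte-like cells. The phagocyte-like cells were 38.9% of the FACS cells and gave 63.6% of its Lpar6 UMIs, and the endothelial-like cells gave 14.0%. Of the named classes with at least 50 cells, mesenchymal-like cells had the highest Lpar1 level and endothelial-like cells the highest Lpar6 level in both injured libraries. The Lpar6 intervals of endothelial-like and phagocyte-like FACS cells overlapped. The 82 endothelial-like FACS cells were a mixture, led by the pericyte marker Rgs5 (score 5.95 for endothelial and 3.87 for pericyte or smooth muscle markers). At resolution 1.6 the FACS library had 69 endothelial-like and 16 pericyte or smooth muscle-like cells.

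**Figure D4:**
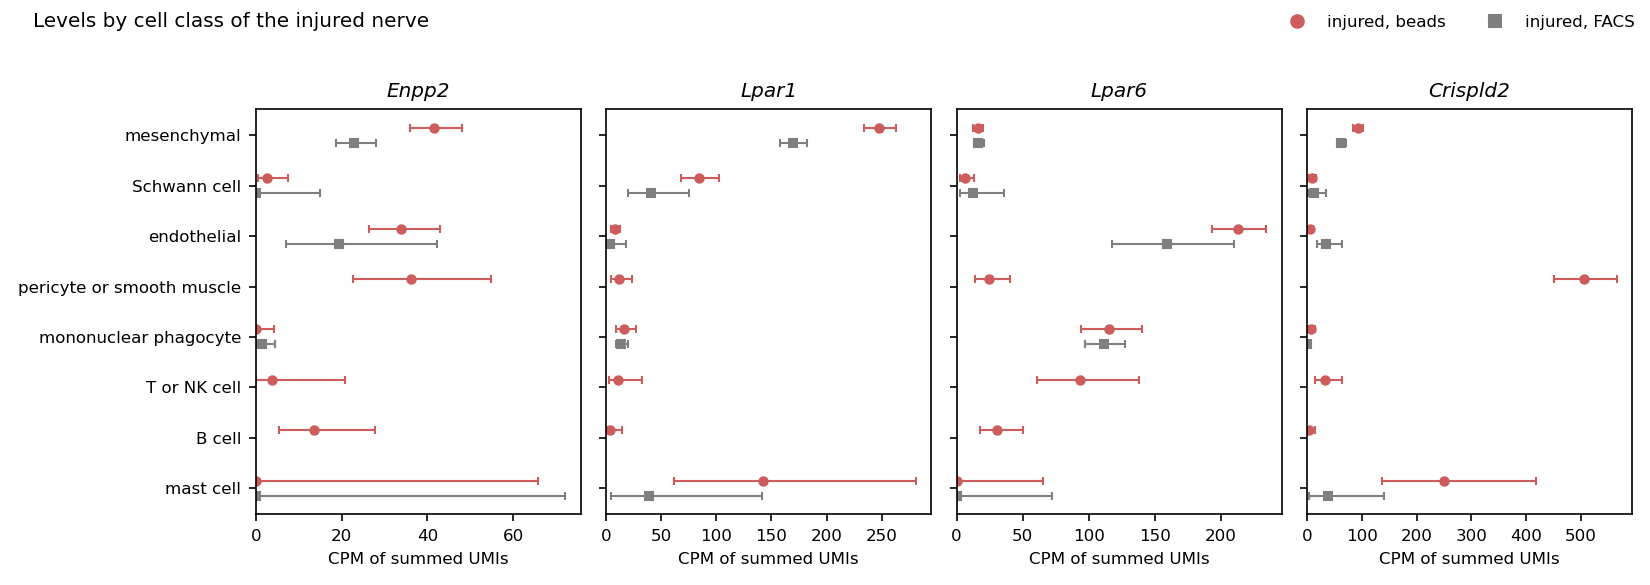
CPM of summed UMIs of Enpp2, Lpar1, Lpar6 and Crispld2 by cell class of the injured nerve, in the beads (circles) and FACS (squares) libraries, with exact Poisson 95% intervals; classes with no FACS cluster have no square. Lpar1 is highest in mesenchymal-like cells, Lpar6 in endothelial-like cells, and Crispld2 in pericyte or smooth muscle-like cells. FACS cells had no separate pericyte or smooth muscle-like cluster, and their endothelial-like cluster also held markers of that class.

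Of the 6 factors, Angptl7, Myoc and Abca6 stayed in mesenchymal cells of the injured nerve, which gave 96.1%, 94.7% and 96.1% of their beads UMIs. Enpp2 was also found in vessel cells. It was at 41.7 CPM (36.0 to 48.0) in mesenchymal-like, 36.2 CPM (22.7 to 54.8) in pericyte or smooth muscle-like and 33.9 CPM (26.4 to 43.0) in endothelial-like cells, with overlapping intervals. Mononuclear phagocyte-like cells had 0 Enpp2 UMIs in 511 cells, and Schwann-like cells were at 2.55 CPM. Of the Enpp2 UMIs, 64.7% were mesenchymal and 23.4% endothelial.

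Crispld2 was highest outside the mesenchyme. It was at 505 CPM (450 to 565) in 279 pericyte or smooth muscle-like cells, against 92.7 CPM (84.1 to 102) in mesenchymal-like cells. These pericyte or smooth muscle-like cells were 6.79% of the cells and gave 36.0% of the Crispld2 UMIs. Hlf was at 10.8 CPM in endothelial-like and 9.38 CPM in mesenchymal-like cells, and at 33.7 CPM on 9 UMIs in T or NK-like cells. Angptl7 was at 18.4 CPM in phagocyte-like cells, with 0 UMIs in 388 B-like and 212 T or NK-like cells.

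The genes around the members were taken as 8 lists, given as counts by the rule of size in all mesenchymal cells beside the 8.17% higher and 7.14% lower over all genes, and as the median log2 ratio, which was 0.19 over 9783 genes of at least 10 CPM. In the LPA pathway 0 of 6 genes past 50 CPM were higher and 3 were lower (median -0.28 over 8 genes). Plpp3, a lipid phosphatase that breaks down LPA, was at 478 CPM in injured against 1606 CPM in uninjured cells (log2 -1.75), and Pla1a, a phospholipase, at 37.3 CPM in injured against 132 CPM in uninjured cells (-1.82). Enpp2 was the third. Within endoneurial-like cells Plpp3 was at 328 CPM in injured against 1286 CPM in uninjured nerve (log2 -1.97). Both the enzyme that makes LPA and the main phosphatase listed were thus lower in injured mesenchymal cells as a whole and within endoneurial-like ones. Lpar1 did not pass the rule in either. With the 3 layers at the same weight, and within epineurial-like cells, only Enpp2 of this list was lower. Within perineurial-like cells only Plpp3 was lower. The level of LPA itself was not measured.

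The other families held genes on both sides. Of the angiopoietin-like family, Angptl4, an inhibitor of lipoprotein lipase, was at 247 CPM in injured against 82.1 CPM in uninjured cells (log2 1.59), and Angpt1, a ligand of the Tek receptor, at 128 CPM in injured against 47.5 CPM in uninjured cells (1.43), while Angptl1 was at 206 CPM in injured against 444 CPM in uninjured cells (-1.11). With Angptl7 that made 2 higher and 2 lower of 5 (median -0.10). Of the CAP domain proteins, Crispld1 was at 132 CPM in injured against 42.9 CPM in uninjured cells (log2 1.62) and Pi15 at 56.3 CPM in injured against 19.8 CPM in uninjured cells (1.50), while Pi16 was at 376 CPM in injured against 871 CPM in uninjured cells (-1.21) beside Crispld2 (median 0.65). Crispld1 and Crispld2 thus differed in opposite directions. Pi16, a marker that named the epineurial class, was higher by the rule within endoneurial-like cells and not called within epineurial-like ones. With the FACS library it was not lower by the rule (log2 -0.68). With the 3 layers at the same weight, only Angptl4 and Crispld1 were higher and only Angptl7 and Crispld2 lower in these families.

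Of the olfactomedin family, Olfm1 was at 46.1 CPM in injured against 146 CPM in uninjured cells (log2 -1.66) and was lower with Myoc, and Olfml3, the most abundant after injury, was at 528 CPM in injured against 440 CPM in uninjured cells (0.26; median -0.33). Of the ABCA transporters, Abca9 was lower at 183 CPM in injured against 429 CPM in uninjured cells (-1.23), and Abca1, which exports cholesterol, was higher at 131 CPM in injured against 32.7 CPM in uninjured cells (2.01; median -0.52). Abca8a, the most abundant, was at 478 CPM in injured against 804 CPM in uninjured cells (-0.75). Of the autotaxin family only Enpp2 reached 50 CPM (median -1.79 over 4 genes).

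Among 19 PAR bZIP and clock genes, Hlf and Nr1d1 were lower, and Nr1d1, a repressor of the clock, was at 12.9 CPM in injured against 57.2 CPM in uninjured cells (log2 -2.15; median -0.22 over 16 genes). Rora, the most abundant in uninjured cells apart from Hlf, was at 51.0 CPM in injured against 87.1 CPM in uninjured cells (-0.77). The hour at which the nerves were taken is not stated, so time of day cannot be told apart from injury for these genes. Myoc is induced by glucocorticoids in the eye, and of 13 glucocorticoid-responsive genes 5 were lower and 0 higher (median -0.90). Tsc22d3, a classic target, was at 87.6 CPM in injured against 315 CPM in uninjured cells (log2 -1.85), Mt1 at 279 CPM in injured against 1299 CPM in uninjured cells (-2.22), Mt2 at 219.5 CPM in injured against 705 CPM in uninjured cells (-1.68), Errfi1 at 208 CPM in injured against 513 CPM in uninjured cells (-1.30) and Dusp1 at 376 CPM in injured against 784 CPM in uninjured cells (-1.06). Within endoneurial-like cells Tsc22d3 was at 43.4 CPM in injured against 368 CPM in uninjured nerve (log2 -3.08). There 3 of the list were lower (Tsc22d3, Mt1 and Mt2) and 0 higher (median -0.78), where 9.12% of genes were lower. In epineurial-like cells 3 were lower (Mt1, Mt2 and Cdkn1a) and 0 higher (median 0.19), where 2.31% of genes were lower. With the 3 layers at the same weight only Mt1 and Mt2 were lower, like 168 of 4052 genes. Any part of glucocorticoids in the level of Myoc was not tested.

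**Figure D5:**
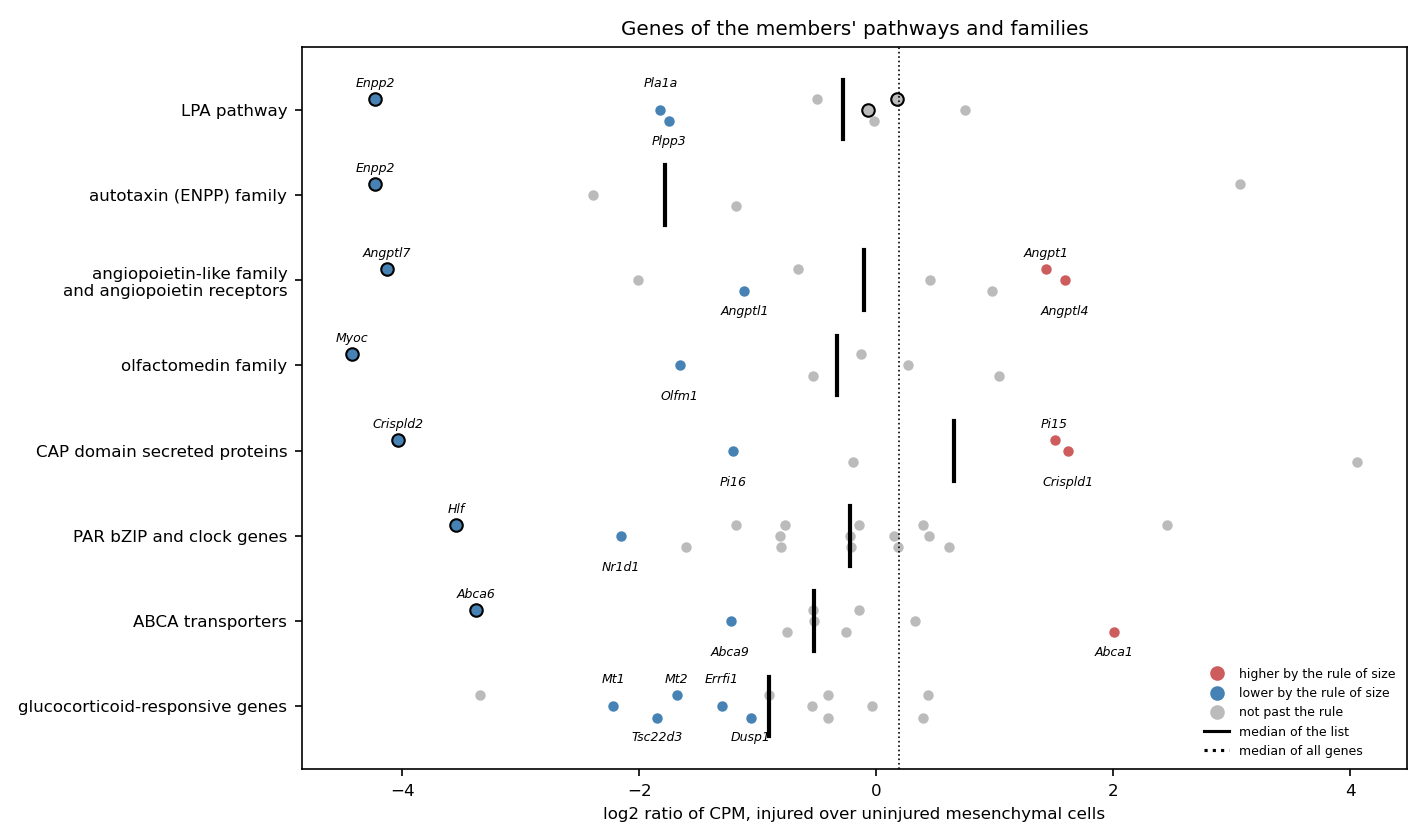
Log2 ratio of CPM, injured over uninjured mesenchymal cells, for each gene of 8 lists with at least 10 CPM in a pool; members are ringed in black, genes past the rule are red (higher) or blue (lower) and named, a pool at 0 is taken as 3 counts, black bars are list medians and the dotted line is the median of all genes. The 6 factors lie at the low end of their lists, and the families around them spread over both sides.

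Other cell types were also unequal beside these results. The 9 Schwann cell markers summed to 75.0 CPM in injured against 444 CPM in uninjured endoneurial-like cells (Foxd3 and L1cam were at 0 in injured cells). The 11 mononuclear phagocyte markers summed to 30.9 CPM in injured against 5.39 CPM in uninjured ones, where 8 of them were at 0. Their part in the members' ratios was not tested. Without cells that held 2 or more UMIs of another class's markers, the log2 ratio within endoneurial-like cells was -3.74 for Angptl7, -4.64 for Enpp2, -4.46 for Crispld2 and -5.37 for Myoc, over 102 injured and 213 uninjured cells.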

How the data were processed

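The authors deposited raw UMI counts, as whole numbers for each cell, in 4 tables: all barcodes of both injured libraries, and mesenchymal cells alone of the injured and uninjured beads libraries. Per the submitters' processing notes, the genome build is mm10. The aligner, the counter, use of strand, doublet removal and how the authors chose mesenchymal cells are not stated in the sources used here. There were 0 columns of other samples. The 8 members, the gene lists and the rules were chosen with earlier results of these data known.

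Older symbols were replaced by current ones, and a gene with no row in a table of the 2 beads libraries was counted as 0 there. Barcodes of both injured libraries needed at least 200 genes, and no doublet caller was run. Log-transformed counts, scaled within each cell, of 2000 variable genes other than the members gave 30 principal components and a graph of 15 neighbours, on which Leiden clustering ran at resolution 0.8 (Python 3.11.15, igraph 0.11.9, scanpy 1.11.5, scikit-learn 1.9.0, pandas 2.3.3, scipy 1.17.1, numpy 2.4.6). Clusters were named "-like" from marker lists when the mean log2 enrichment was at least 0.8, led the next list by 0.5 and rested on at least 3 markers seen in 5% of cells. A cluster stayed unnamed if its 10 most enriched genes held more markers of another list than of its own. It also stayed unnamed if they held none of its own and its depth was far below the median of the cells clustered. This scoring was set after the data were seen.

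Counts were summed over cells and given as CPM with exact Poisson intervals. Ratios carry exact conditional binomial intervals and shares exact binomial ones. With 1 library a group there is no test, and the rule of size (at least 50 CPM, 2-fold, an interval without equality) is not one. On Poisson counts simulated for 3533 genes of the injured against uninjured comparison, it recovered 99.5% of 200 genes changed 4-fold, with 0 false calls. That simulation held no difference between animals, libraries or cells. It therefore checks the calculation only and says nothing of false calls in the real comparison. The text names the 8 members; of each list, the genes past the rule and the most abundant; and the 5 genes most like Angptl7, Myoc and Enpp2. Other scalings used edgeR 4.0.16 and DESeq2 1.42.0 in R 4.3.3. UMIs per cell, thinning within layers, and ratios between layers under other clusterings or after removal of cells with other classes' markers, were added after the data were seen. Differences between animals are not covered by any interval.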

Additional observations from a re-analysis of the deposited data

How the results depend on the processing

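The 6 factors were lower by the rule of size in all mesenchymal cells, and in endoneurial-like cells, under every alternative run. With the 3 layers at the same weight the log2 ratio over all mesenchymal cells was -2.13 for Myoc, -2.52 for Hlf, -2.55 for Abca6, -2.95 for Crispld2, -3.06 for Angptl7 and -3.54 for Enpp2. In epineurial-like cells the count of members lower, 1, became 2 at resolution 1.6, 0 with the markers left out of the clustering, 5 by marker score, 0 without cells holding markers of other classes, 4 as UMIs per cell and 0 after thinning. In perineurial-like cells the count of 2 became 6 by marker score, 0 without cells holding markers of other classes, 1 as UMIs per cell and 0 after thinning. The cause was not tested. Thinning and the removal of cells left fewer counts, while UMIs per cell used the same cells and counts. Over all genes, 283 lower and 324 higher became 675 and 991 at a floor of 10 CPM, and 1094 and 1407 with no floor. DESeq2's size factors gave 328 lower and 276 higher and TMM 349 and 252, which moved the median of all genes from 0.19 to 0.12 and 0.06. List medians moved with the FACS library to -0.77 (LPA pathway), -0.87 (clock genes) and -1.19 (ABCA), and with the 3 layers at the same weight to -0.033 (LPA pathway), -1.27 (autotaxin family), 0.14 (CAP domain), -0.10 (ABCA), -0.27 (glucocorticoid-responsive) and 0.19 (angiopoietin-like, which reversed). No paired analysis was possible because each group is 1 library, and for the same reason no replicate could be left out. Lpar6 and Hlf in injured pools rest on few UMIs, and their intervals are wide.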
